A study of Drosophila melanogaster with 4 samples.

Results

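Ligand-gated and pickpocket (ppk) ion channels turn a chemical or mechanical signal into a current. Their transcripts were measured in RNA pulled down with the splicing factor dASF/SF2 from fly larvae. The probes were chosen by gene symbol: those with exactly 1 symbol that names a nicotinic acetylcholine receptor (nAChR), an ionotropic glutamate receptor (GluR, Nmdar, KaiR), a glutamate-gated chloride channel (GluCl), a ppk channel, or Rdl, Grd, Lcch3, HisCl1, ort or pHCl-1. This gave 52 probes of 15744 listed on the array, for 48 of the 12236 genes with such a probe. No probe was chosen for HisCl1 or pHCl-1, which are not analysed here. One of them, GluRS-m, encodes the mitochondrial glutamyl-tRNA synthetase, an enzyme whose symbol happens to begin with the same letters. It is no channel, and the 51 probes of the other 47 genes are the channel probes described below.

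RNA was recovered with an anti-GFP antibody (an immunoprecipitation, IP) from Drosophila melanogaster larvae in which the GMR driver was crossed to GFP-dASF/SF2 or, as the control, to GFP-NLS, GFP with a nuclear localisation signal. dASF/SF2 is an SR-family splicing factor, and the question was which mRNAs it may bind in the developing eye. Each extract pooled the anterior ends of 600 larvae of instar 3, so it also held brain, muscle, trachea and other tissues beside the eye discs in which GMR is active. The 4 arrays each set a GFP-dASF/SF2 IP against a GFP-NLS IP, as 2 dye-swapped pairs that count as 2 replicates. No age beyond the instar, and no further allele, is given in the sources used here. Nothing says that the replicates came from separate cultures, so the p-values cover only how far these samples differed, and that may be technical.

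Cys-loop receptors, such as nAChRs and GABA receptors, are pentamers, and ionotropic glutamate receptors are tetramers; both open when a transmitter binds. In insects acetylcholine carries most fast excitation in the brain, while glutamate does so at the neuromuscular junction. The ppk channels belong to the degenerin/epithelial sodium channel family and are known from pain-sensing neurons, taste and pheromone cells and the tracheae. Many transcripts of neuronal channels in flies are alternatively spliced and edited.

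Values are the authors' deposited log ratios, centred here on each array's median. Neither the base of the logarithm nor the numerator is stated, so values carry log-ratio units and folds are left out. Arrays are called Cy5 arrays where dASF/SF2 was labelled with Cy5 and Cy3 arrays where it was labelled with Cy3, and values are listed as replicate 1 and then replicate 2. The sign of the Cy3 arrays was turned, so that a difference between the IPs has 1 sign on all 4 arrays if the deposited values are dye ratios. In that case the mean of the arrays not turned is a mean over the dye orientations, not a comparison of the IPs. If the values are already ratios of 1 IP to the other, the mean of the arrays not turned is the comparison. Both were tested, because over all 12847 probes measured on all 4 arrays the dye-swapped arrays correlated at 0.236 in replicate 1 and -0.0539 in replicate 2 (Pearson; Spearman 0.191 and -0.467). Between replicates, arrays of opposite orientation correlated at -0.219 (Cy5 array of replicate 1) and -0.0686 (Cy5 array of replicate 2), by Pearson. Arrays of the same orientation correlated at 0.435 (Cy5) and 0.264 (Cy3). Because the pairs of opposite orientation differ in sign, the direction is not settled, and no side is assigned to an IP. A ratio shows no level, so the labelled tissue could not be checked against its markers. In such bulk extracts fewer cells of a type and less RNA per cell cannot be told apart. No array held input RNA, so a transcript's amount in the extract and its recovery in the IP cannot be told apart either.

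Of the 51 channel probes, 36 (34 genes) had a value on all 4 arrays, which is 70.6%, against 81.6% of all probes listed. They were 9 nAChR probes, 8 glutamate receptor probes, 16 ppk probes and 3 of the GABA-, glutamate- and histamine-gated Cys-loop channels. The turned means of the 36 probes lay between -0.27 and 0.20, with a median of 0.032, against a median of 0.0043 over all probes. Their standard deviation was 0.105, against 0.164 over all probes, and their median size without the sign was 0.0659, against 0.0982. A positive mean was found for 21 of the 36 (51.3% of all probes).

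With limma's moderated test, 0 of the 36 had an adjusted p under 0.05, as had 0% of all probes. An unadjusted p under 0.05 was found for 3 channel probes (8.33%, against 23.2% of all probes). They were probe 4733 of nAChRalpha2, GluRIIE and probe 12802 of nAChRbeta1, with unadjusted p of 0.00836, 0.0122 and 0.0327 in limma. One was positive (9.57% of all probes) and 2 were negative (13.6% of all probes). The count was 1 (2.78%) without the Cy5 array of replicate 2, where 12.2% of all probes had such a p, and 5 (12.5%) without the Cy3 array of replicate 2, where 19.2% did. A single sign on all 4 turned arrays was shared by 6 channel probes (16.7%, against 28.1% of all probes), 5 of them positive (12.1% of all probes).

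**Figure D1:**
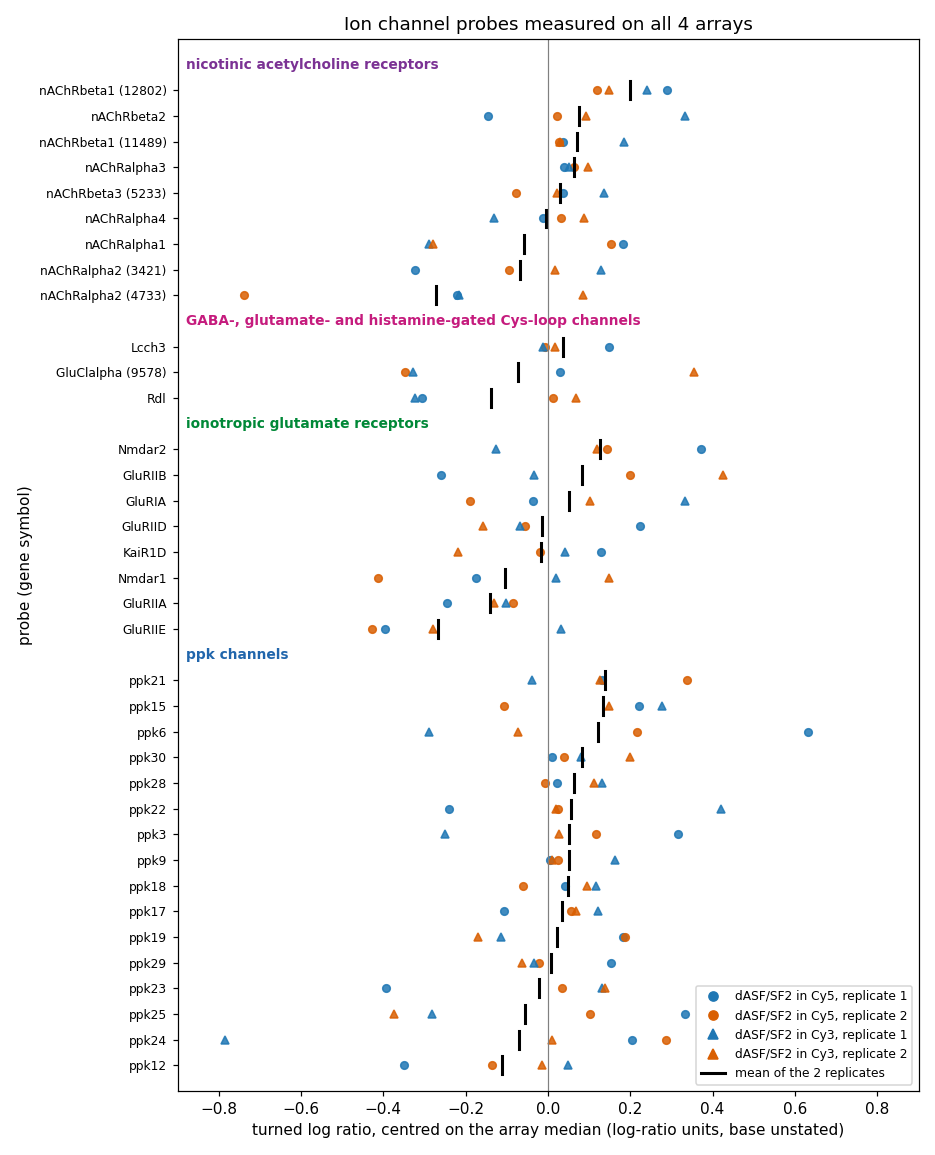
Turned log ratio (x axis, log-ratio units, centred on the array median) of each of the 36 channel probes measured on all 4 arrays (rows, by family). Circles are Cy5 arrays and triangles Cy3 arrays, blue replicate 1 and orange replicate 2, and the black bar is the mean of the 2 replicates; most rows have points on both sides of 0, and the means lie between -0.27 and 0.20.

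Among the nicotinic receptors, nAChRbeta1, a subunit that several neonicotinoid-sensitive receptors share, was the gene whose probes lay together on the positive side. Its probe 12802 had turned values of 0.289 and 0.120 on the Cy5 arrays and 0.241 and 0.149 on the Cy3 arrays. All 4 lay above 0, with a mean of 0.20 ± 0.09 (SD, n = 2) and an adjusted p of 0.188 in limma. The other probe of the gene, 11489, had 0.037 and 0.026 on the Cy5 arrays and 0.185 and 0.029 on the Cy3 arrays. It too was positive throughout, but at a mean of 0.069 ± 0.059 (adjusted p = 0.576 in limma), and 1 array carried most of it.

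The largest turned mean among the 36 channel probes was that of nAChRalpha2, an alpha subunit of the nervous system, and its probes differed. Not turned, the largest was that of ppk24, given with its family. Probe 4733 had -0.222 and -0.738 on the turned Cy5 arrays and -0.217 and 0.086 on the Cy3 arrays. The mean was -0.27 ± 0.08 (SD, n = 2; adjusted p = 0.126 in limma), but one Cy5 array stood far below the rest, and without that array, of replicate 2, the mean was -0.067. Without the Cy3 array of replicate 2 it was -0.479. Probe 3421 of the same gene had -0.324 and -0.094 on the Cy5 arrays and 0.129 and 0.017 on the Cy3 arrays, a mean of -0.068 ± 0.042 (adjusted p = 0.578 in limma). Its turned sign followed the dye, and with the arrays not turned it was negative on all 4.

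The remaining nicotinic subunits had smaller turned means. The alpha subunit gene nAChRalpha3 had 0.040 and 0.062 on the Cy5 arrays and 0.052 and 0.098 on the Cy3 arrays, the closest agreement among the 6 probes of 1 sign, at a mean of 0.063 ± 0.024 (adjusted p = 0.602 in limma). For nAChRbeta2 the values were -0.145 and 0.022 on the Cy5 arrays and 0.333 and 0.093 on the Cy3 arrays (mean 0.076 ± 0.026), on both sides of 0. Probe 5233 of nAChRbeta3 was at 0.028 ± 0.081 and nAChRalpha4 at -0.0060 ± 0.0933. Of the 9 nicotinic probes, 5 had positive means and 4 negative, with a median of 0.028. Not turned, 3 were positive and 6 negative, with a median of -0.038.

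nAChRalpha1, a subunit bound by alpha-bungarotoxin, showed the reverse arrangement. Before turning it was positive on every array, with 0.183 and 0.154 on the Cy5 arrays and 0.289 and 0.280 on the Cy3 arrays. The mean not turned was 0.23 ± 0.01 (SD, n = 2; unadjusted p = 0.0281 and adjusted p = 0.752 in limma), while the turned mean was -0.058 ± 0.007. In the RefSeq annotation 1 gene lies between it and nAChRalpha2 on chromosome arm 3R, and nAChRalpha2 and nAChRbeta2 are direct neighbours. These 3 clustered genes did not share a side in either reading: their means not turned were 0.23 for nAChRalpha1, -0.14 and -0.21 for the probes of nAChRalpha2, and -0.14 ± 0.14 for nAChRbeta2.

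Among the glutamate receptors, GluRIIE and GluRIIA, subunits of the neuromuscular junction, had the largest turned means. Not turned, they were at -0.14 ± 0.10 and -0.025 ± 0.068, and Nmdar1 and GluRIA had the largest means. GluRIIE, a subunit that every junctional receptor needs, had -0.397 and -0.427 on the Cy5 arrays and 0.031 and -0.279 on the Cy3 arrays. The Cy3 array of replicate 1 lay just above 0 and the other 3 well below it; the mean was -0.27 ± 0.12 (SD, n = 2; adjusted p = 0.138 in limma). Without the Cy5 array of replicate 1 it was -0.161. GluRIIA, the subunit of larger quantal currents, had -0.246 and -0.086 on the Cy5 arrays and -0.101 and -0.132 on the Cy3 arrays, below 0 on all 4, at -0.14 ± 0.05 (adjusted p = 0.276 in limma). GluRIIB, which competes with GluRIIA for the receptor, had -0.261 and 0.199 on the Cy5 arrays and -0.035 and 0.426 on the Cy3 arrays. Its replicates were on opposite sides (0.082 ± 0.326; adjusted p = 0.699 in limma). GluRIID, another essential subunit, was at -0.015 ± 0.131.

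The junctional genes come in adjacent pairs, GluRIIA with GluRIIB on arm 2L and GluRIIE with GluRIID on arm 3R, in RefSeq's order of protein-coding genes. Their turned means were -0.14 beside 0.082 in the one pair and -0.27 beside -0.015 in the other, differences that were not tested. Muscle markers, given here because these receptors sit on muscle, had turned means below 0 for 7 of 9 probes, with a median of -0.112 and a range from -0.584 to 0.289. Not turned, 7 of the 9 were above 0, with a median of 0.034 and a range from -0.041 to 0.099. In the turned test 5 of the 9 had an unadjusted p under 0.05 in limma (23.2% over all probes), and 0 not turned. Of these 5, 4 were negative (13.6% over all probes) and 1 was positive (9.57%), that of Act87E at 0.29 ± 0.21. The giant sarcomere protein genes sls (probe 10317, -0.58 ± 0.29) and bt (-0.34 ± 0.14) had the largest turned values. The other probe of sls, 4262, was at -0.11 ± 0.09. Not turned, probe 10317 was at 0.0048 ± 0.39 and bt at 0.043 ± 0.65. The part of muscle RNA in the values of GluRIIA and GluRIIE was not tested.

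Receptors of the central nervous system lay on both sides. The obligatory NMDA receptor subunit Nmdar1 had -0.175 and -0.413 on the Cy5 arrays and 0.020 and 0.147 on the Cy3 arrays, a mean of -0.11 ± 0.04 (SD, n = 2; adjusted p = 0.402 in limma). With the arrays not turned it was below 0 on all 4, at -0.19 ± 0.13. Its partner Nmdar2 had 0.371 and 0.144 on the Cy5 arrays and -0.126 and 0.118 on the Cy3 arrays, a mean of 0.13 ± 0.01 (adjusted p = 0.314 in limma). The close replicate means of Nmdar2 hide arrays that differ in sign, and its mean was 0.0025 without the Cy5 array of replicate 1. The AMPA-type subunit gene GluRIA had -0.036 and -0.189 on the Cy5 arrays and 0.332 and 0.101 on the Cy3 arrays (0.052 ± 0.136), so it too was negative on all 4 arrays before turning, at -0.16 ± 0.03 (unadjusted p = 0.0762 in limma). The kainate-type receptor gene KaiR1D was at -0.017 ± 0.144. Over the 8 probes the median was -0.016 turned and -0.069 not turned.

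The GABA-, glutamate- and histamine-gated Cys-loop channels, most of them chloride channels, were the least well measured family, with 3 of 6 probes on all 4 arrays. Rdl, the GABA receptor subunit of dieldrin resistance, had -0.306 and 0.013 on the Cy5 arrays and -0.324 and 0.067 on the Cy3 arrays. Both arrays of replicate 1 lay near -0.31 and both of replicate 2 just above 0, so that the mean of -0.14 ± 0.25 (SD, n = 2; adjusted p = 0.444 in limma) rests on replicate 1. Probe 9578 of GluClalpha, the ivermectin-sensitive chloride channel, had 0.029 and -0.348 on the Cy5 arrays and -0.328 and 0.354 on the Cy3 arrays, with a mean of -0.073 ± 0.108. Lcch3, a GABA receptor subunit, was within 0.017 of 0 on 3 arrays and at 0.149 on the Cy5 array of replicate 1 (0.037 ± 0.045).

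ort and Grd had no value on the Cy3 array of replicate 2. The first encodes the histamine-gated chloride channel by which lamina neurons receive photoreceptor signals, and the other a GABA- and glycine-receptor-like subunit. On the remaining arrays, not turned, ort had 0.570 and 0.249 with dASF/SF2 in Cy5 and 0.515 with it in Cy3. Grd had 0.450 and 0.216 on the Cy5 arrays and 0.298 on the Cy3 array of replicate 1. Both were thus above 0 wherever measured, in either dye orientation. When a probe needed only 1 array per replicate, the mean not turned was 0.40 ± 0.21 for ort (SD, n = 2; unadjusted p = 0.0160 and adjusted p = 0.755 in limma) and 0.30 ± 0.11 for Grd (unadjusted p = 0.0220, adjusted p = 0.755). In that fit replicate 2 is a single array of 1 dye orientation. The turned means there were 0.14 ± 0.16 for ort and 0.15 ± 0.10 for Grd.

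The ppk family was the largest, with 24 genes of 1 probe each, 16 of them measured on all 4 arrays. Their turned means ran from -0.11 to 0.14, with 12 positive and 4 negative and a median of 0.049. Not turned, they ran from -0.16 to 0.32, with 7 positive and 9 negative and a median of -0.046. ppk21 had 0.131 and 0.337 on the Cy5 arrays and -0.040 and 0.126 on the Cy3 arrays (0.14 ± 0.13 (SD, n = 2); adjusted p = 0.338 in limma), which was the largest of them. ppk15 had 0.220 and -0.108 on the Cy5 arrays and 0.278 and 0.149 on the Cy3 arrays (0.13 ± 0.16). ppk12 lay lowest, with -0.351 and -0.135 on the Cy5 arrays and 0.048 and -0.014 on the Cy3 arrays (-0.11 ± 0.05; adjusted p = 0.377 in limma). Each of these 3 had at least 1 array on the other side of 0. Without the Cy5 array of replicate 1 the mean of ppk12 was -0.0132, and without the Cy3 array of replicate 1 it was -0.213. The mean of ppk15 was 0.0705 without the Cy3 array of replicate 2.

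The ppk genes of 1 sign on all 4 turned arrays had small values. ppk30 had 0.010 and 0.039 on the Cy5 arrays and 0.081 and 0.200 on the Cy3 arrays, a mean of 0.083 ± 0.052, and ppk9 was at 0.050 ± 0.047. Their adjusted p-values in limma were 0.504 and 0.690. ppk28, which encodes a water-taste channel, was at 0.064 ± 0.017, with 3 arrays above 0 and the Cy5 array of replicate 2 at -0.008. ppk30 sits in a row of ppk genes on arm 3R, between ppk20 and, 1 gene further, ppk19, with ppk21 at the other end next to ppk20. In that row ppk21, ppk30 and ppk19 had turned means of 0.14, 0.083 and 0.021, and ppk20, with 3 arrays, had -0.782 and 0.024 on the Cy5 arrays and 0.561 on the Cy3 array of replicate 1.

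A few ppk genes had means further from 0 before turning than after it. ppk25, required for pheromone responses in male courtship, had 0.332 and 0.102 on the Cy5 arrays and 0.281 and 0.374 on the Cy3 arrays, not turned. Its mean was 0.27 ± 0.05 (SD, n = 2; unadjusted p = 0.0159 and adjusted p = 0.752 in limma), against a turned mean of -0.055 ± 0.114. ppk6 had 0.632 and 0.217 on the Cy5 arrays and 0.288 and 0.073 on the Cy3 arrays, not turned. Its mean was 0.30 ± 0.22 (unadjusted p = 0.0346 and adjusted p = 0.752 in limma), against a turned mean of 0.12 ± 0.07. Before turning, ppk25 and ppk6 were above 0 on every array. ppk24 had 0.204 and 0.286 on the Cy5 arrays and 0.784 and -0.010 on the Cy3 arrays, not turned. The mean of ppk24 was 0.32 ± 0.25 (unadjusted p = 0.0372 and adjusted p = 0.752 in limma), and 0.171 without the Cy3 array of replicate 1. ppk19, a gene of salt taste, was nearly even, with 0.182 and 0.186 on the Cy5 arrays and 0.115 and 0.170 on the Cy3 arrays (0.16 ± 0.02; unadjusted p = 0.0771 in limma).

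The other ppk probes on all 4 arrays had turned means near 0. Those of ppk22, ppk3, ppk18 and ppk17 lay between 0.035 and 0.056, and that of ppk29, which acts with ppk23 in pheromone-sensing cells, was 0.0078 ± 0.0718. ppk23 was at -0.023 ± 0.155 and ppk24 at -0.071 ± 0.310. On the arrays not turned, ppk22 and ppk23 were among the lowest of the family, at -0.16 ± 0.24 and -0.16 ± 0.15, and ppk3 was at 0.16 ± 0.17.

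With the arrays not turned, the channel probes as a whole lay as follows. Of the 36, 14 had a positive mean (53.2% of all probes), the median was -0.037, against 0.0085 over all probes, and the means ran from -0.21 to 0.32. Their standard deviation was 0.141, against 0.153 over all probes, and their median size without the sign was 0.0974, against 0.0705. Again 0 of the 36 passed an adjusted p of 0.05 in limma, as did 0% of all probes. An unadjusted p under 0.05 was found for 4 (11.1%, against 5.57% of all probes): ppk25, nAChRalpha1, ppk6 and ppk24, all positive (2.13% of all probes). The count was 2 (5.26%, against 4.4% of all probes) without the Cy5 array of replicate 1 and 1 (2.78%, against 3.6%) without the Cy5 array of replicate 2, and 7 (19.4%) in the fit on 4 arrays with the replicate number as a block (12.3% of all probes there). One sign on all 4 arrays was shared by 7 channel probes (19.4%, against 13.6% of all probes). The positive ones were nAChRalpha1, ppk6, ppk19 and ppk25 (4 of 36, against 7.15% of all probes), and the negative ones GluRIA, Nmdar1 and probe 3421 of nAChRalpha2.

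**Figure D2:**
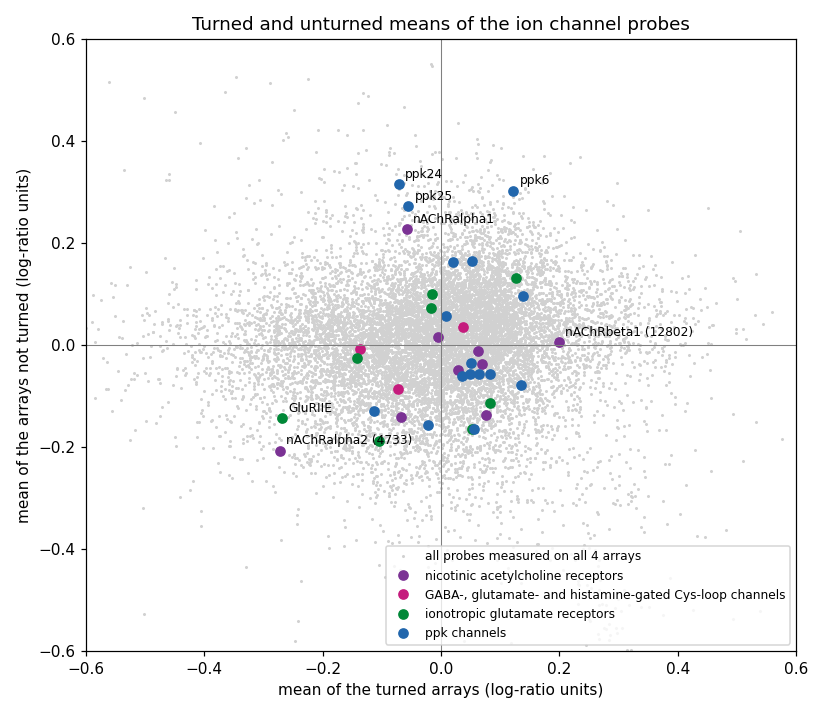
Mean over the 2 replicates with the Cy3 arrays turned (x axis) and not turned (y axis), both in log-ratio units, for the 36 channel probes (coloured by family) and all 12847 probes measured on all 4 arrays (grey, 195 of them beyond the axes). Named are the 3 probes with an unadjusted p under 0.05 in the turned test, at the left and right, and the 4 in the test of the arrays not turned, at the top.

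The agreement of the replicates differed between the readings. The turned replicate means of the 36 channel probes correlated at 0.223 (Pearson) and 0.197 (Spearman), against 0.548 and 0.545 for all probes. Not turned, the channel probes gave 0.449 and 0.567, against 0.160 and 0.211 for all probes. These are descriptions across probes, which share arrays and dyes and are not independent replicates. In the turned arrays 24 of the 36 had replicate means of 1 sign (66.7%, against 70.3% of all probes), and in the arrays not turned 28 did (77.8%, against 57.8%). The mean of the Cy5 arrays and that of the Cy3 arrays, as deposited and centred, had the same sign for 23 of the 36 channel probes, or 63.9%, against 42% of all probes. Whether dye-dependent signal has a part in these values was not tested, since no spot intensities were used.

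**Figure D3:**
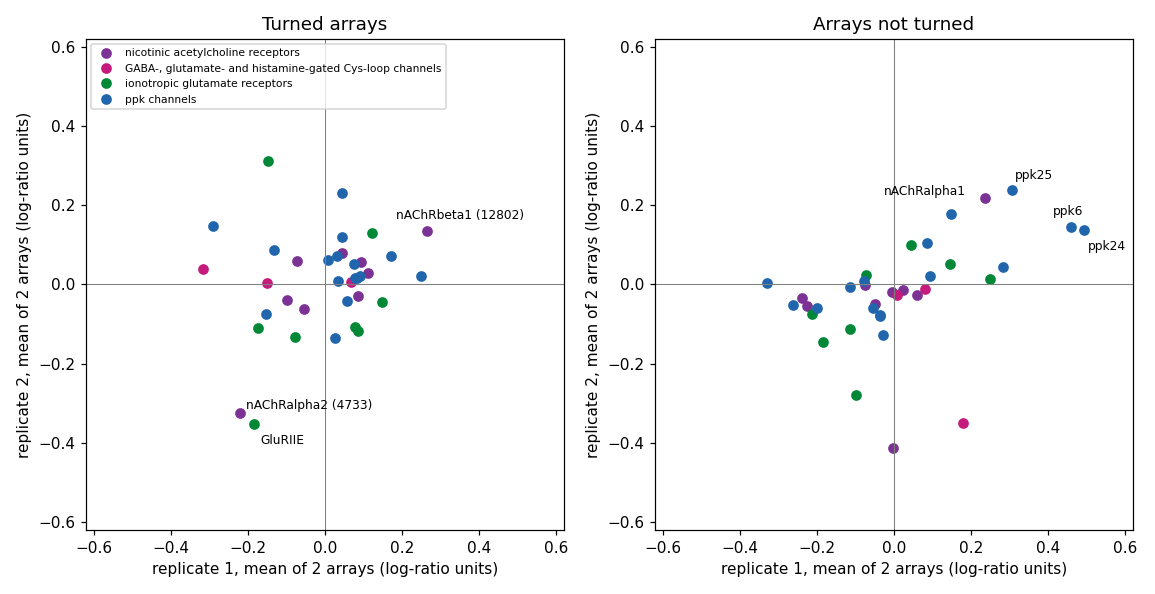
Replicate 1 (x axis) against replicate 2 (y axis), each the mean of 2 arrays in log-ratio units, for the 36 channel probes, with the Cy3 arrays turned (left) and not turned (right). Probes with an unadjusted p under 0.05 are named; on the right ppk25, ppk6, ppk24 and nAChRalpha1 lie at the upper right, and on the left nAChRalpha2 (probe 4733) and GluRIIE lie at the lower left.

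The other 15 channel probes had values on fewer arrays. Of these, 8 had 3 arrays, 4 had 2, 2 had 1, and the probe of GluRIB, an AMPA-type subunit, had none. nAChRalpha5 had turned values of 0.215 and -0.346 on the Cy5 arrays and -0.550 on the Cy3 array of replicate 2. nAChRalpha7, the subunit of the giant fibre escape circuit, had 0.073 and -0.280 on the Cy5 arrays and 0.005 on the Cy3 array of replicate 2. The other probe of nAChRbeta3, 15184, had -0.035 on the Cy5 array of replicate 2 and 0.261 and 0 on the Cy3 arrays, and the other probe of GluClalpha, 6080, had 0.065 and 0.004 on the Cy5 arrays alone. ppk itself, the founding gene and a channel of the pain-sensing dendritic arborisation neurons, had 0.039 and -0.031 on the Cy5 arrays and -0.333 on the Cy3 array of replicate 1. ppk26, which acts with ppk in those neurons, was measured on the Cy5 array of replicate 2 alone, at -0.064.

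Among the rest, ppk7 and ppk14 are adjacent genes on arm 2L. ppk14 had -0.215 on the Cy5 array of replicate 1 and -0.131 on the turned Cy3 array of replicate 2, and ppk7 had -0.211 on the Cy5 array of replicate 2 and 0.063 and -0.143 on the Cy3 arrays. ppk8 had -0.281 and 0.530 on the turned arrays of replicate 1, ppk31 had -0.498 and 0 on the turned Cy3 arrays, and ppk27 had 0 on the Cy3 array of replicate 2 alone. The deposited values of that array include 811 exact zeros, among them those of ppk27, ppk31 and nAChRbeta3. When 1 array per replicate was enough, 47 channel probes could be tested, and the turned mean of ppk14 was -0.17 ± 0.06 (SD, n = 2; adjusted p = 0.309 in limma). None of the 47 passed in that fit, where an unadjusted p below 0.05 was given to 3 (6.38%, with 17% of all probes beside it). Not turned, 6 of the 47 had one (12.8%, against 5.36% of all probes), ort and Grd among them, and 0 passed after adjustment. GluRS-m, the tRNA synthetase gene that the symbol rule also took, was at -0.015 ± 0.058.

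Genes that act beside these channels were measured for comparison, as probes on all 4 arrays, and 0 of them passed an adjusted p of 0.05 in limma. Voltage-gated and leak channels had 29 probes for 25 of 32 genes listed, 18 positive and 11 negative, with a median turned mean of 0.018. In the turned test an unadjusted p under 0.05 was found for 5 of the 29, 4 positive and 1 negative, where 23.2% of all probes had one. Not turned, again 18 were positive and 11 negative, with a median of 0.025. The largest turned values were those of the potassium channel genes Shaw (-0.22 ± 0.19) and Sh (probe 12773, 0.20 ± 0.03). Probes 6848 and 4970 of Sh were at 0.19 ± 0.08 and -0.031 ± 0.088. Transmitter synthesis and transport had 13 probes for 12 of 13 genes, 10 of them positive when turned, with a median of 0.084, and 5 positive when not turned, with a median of -0.016. The largest turned values were those of the glutamine synthetase gene Gs2 (0.39 ± 0.25, but -0.037 not turned) and the choline transporter gene ChT (-0.24 ± 0.07, and -0.35 not turned).

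Metabotropic receptors had 3 probes, all with positive turned means and 2 positive when not turned, with turned means of 0.18 ± 0.04 for mGluR and 0.086 ± 0.026 for mAChR-C. Synaptic partners of the receptors had 13 probes for 10 of 13 genes, 8 positive and 5 negative in either reading, with a median of 0.045 turned and 0.052 not turned. Among the turned means cora, which anchors GluRIIA at the junction, was lowest (probe 14542, -0.28 ± 0.14), while qvr, a regulator of Shaker and nicotinic receptors, was highest at 0.16 ± 0.11. The other probe of cora, 9533, was at -0.14 ± 0.32. Related channels outside the symbol rule had 6 probes and a median of 0.011 turned and -0.023 not turned, with turned means of -0.20 ± 0.11 for SecCl and 0.11 ± 0.03 for the kainate receptor gene CG11155.

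Cell type markers were measured in the same way. Neuron markers, 10 probes for 8 of 11 genes, had 5 positive and 5 negative turned means, a median of -0.012 and a range from -0.310 to 0.164. Not turned, 9 of the 10 were positive, with a median of 0.090. The synaptic active zone gene brp had probes on both sides in the turned reading (-0.31 ± 0.19 for probe 13538), and Appl was at -0.26 ± 0.16. Trachea markers, 8 probes, had 3 positive and 5 negative turned means, a median of -0.0044 and a range from -0.20 to 0.28. Turned means were 0.28 ± 0.32 for sinu, 0.22 ± 0.18 for obst-A and -0.20 ± 0.09 for serp. Not turned, 5 were positive and 3 negative, with a median of 0.019. Glia markers, 9 probes, had 6 positive and 3 negative turned means and a median of 0.23, with Gs2, which is also in the transmitter list, and Gli (0.36 ± 0.16) highest. The lowest was loco at -0.22 ± 0.09, and the probes of nrv2 were at -0.0625 and -0.013. In the turned test 7 of the 9 had an unadjusted p under 0.05 in limma (23.2% over all probes). Of these, 6 were positive (9.57% over all probes) and 1 was negative (13.6%). One sign on all 4 turned arrays was shared by 6 (28.1% over all probes), 5 of them positive (12.1%) and 1 negative. Not turned, 4 were positive and 5 negative, the median was -0.019, and 0 had an unadjusted p under 0.05 in limma. Eye disc markers, 8 probes, had 3 positive turned means and a median of -0.025, with sev at -0.46 ± 0.15 and lz at 0.27 ± 0.15. Not turned, 7 of the 8 were positive, with a median of 0.087, and sev was at 0.099. The part of any of these cell types in the values of the channel probes was not tested.

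**Figure D4:**
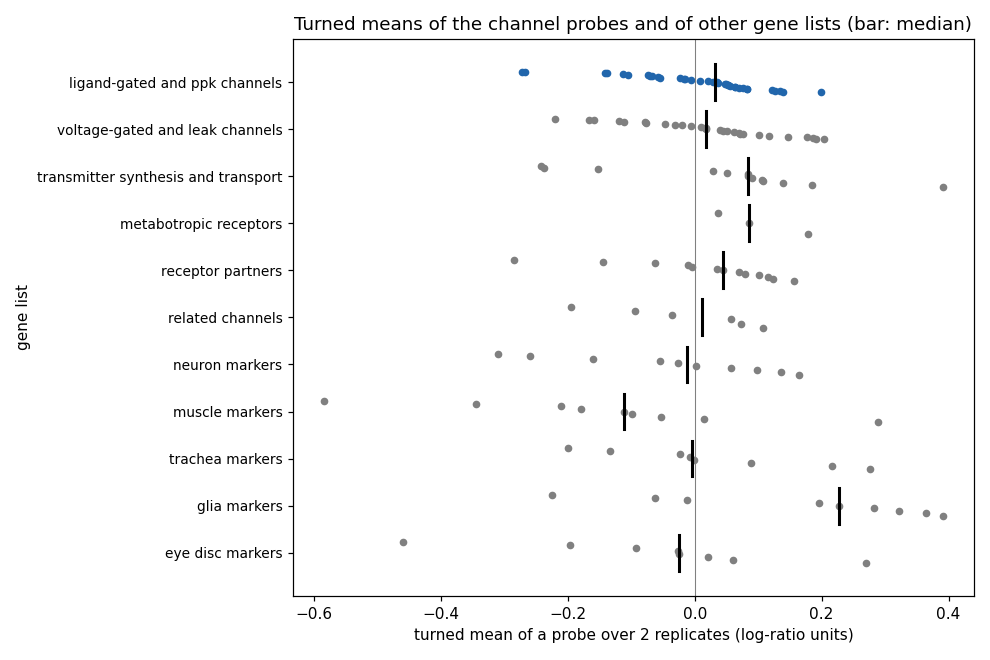
Turned mean of each probe over the 2 replicates (x axis, log-ratio units) for the channel probes (blue) and 10 other gene lists (grey), 1 point per probe measured on all 4 arrays, with the median of each list as a black bar. The channel probes reach from -0.27 to 0.20 around a median of 0.032, while the muscle markers have a median of -0.112 and the glia markers one of 0.23; not turned, these medians are -0.037, 0.034 and -0.019.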

How the data were processed

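The data are 4 two-colour arrays of 2 dye-swapped replicates. The values are scores on a logarithmic ratio scale that the authors deposited, 1 per probe and array. How the background was corrected, the arrays normalised and the logarithm taken is not given in the sources used here. Column medians lay between 0 and 0.013. The marker -10000 stood in 73 cells and was read as missing. Most missing values did not carry the marker but had no number in the values used. Between 13815 and 15330 probes were measured per array; the number of arrays limits the precision, and no scanner signals were used.

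Probes were named by GEO's platform annotation (13147 with 1 symbol), and all 52 chosen probes matched a RefSeq gene by Entrez identifier (assembly Release 6 plus ISO1 MT), with 0 changed symbols. No sequence table or genome was used.

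Arrays were centred on their medians, the Cy3 arrays were turned or not, and the arrays of a replicate were averaged. Whether the mean over the 2 replicates differed from 0 was tested with limma 3.58.1 in R 4.3.3 (lmFit, eBayes), over the 12847 probes measured on all 4 arrays, adjusted by Benjamini-Hochberg at a threshold of 0.05. Same-numbered arrays are dye swaps, per the labels. Alternatives were other scalings, filters, units and fits and leaving out each array. In each of 4 families up to 6 probes with the largest turned mean got their value on each array, and up to 2 genes per other list were named; further values were chosen after they were seen. The members and lists were chosen with earlier results of these data known. Plots were made in Python 3.11.15 with matplotlib 3.10.9.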

Additional observations from a re-analysis of the deposited data

Results flagged for a closer look

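In the 4 turned arrays of each of the 36 channel probes, a single array that stood apart from the other 3 by Dixon's criterion was found for 2 probes. The nominal rate of the criterion is about 1 in 20 probes, for independent normal values, and this count is near that rate. The share over all probes was not computed. For probe 11489 of nAChRbeta1 the array apart was the Cy3 array of replicate 1, at 0.185, while the others lay between 0.026 and 0.037. For ppk9 it was the same array, at 0.162, while the others lay between 0.004 and 0.025.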

How the results depend on the processing

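No channel probe passed an adjusted p of 0.05 under any alternative run, turned or not; over these the smallest adjusted p was 0.0599 in limma, with the replicate block (turned). That block, whose correlation was -0.408, called 1119 of all probes (8.71%). Turned, leaving out 1 array gave 1 to 5 channel probes at an unadjusted p under 0.05, 7 to 12 of 1 sign, then on 3 arrays, and a median of -5e-04 to 0.0405. Not turned, it gave 1 to 5, 8 to 15, and -0.0505 to 0.00638, and the replicate block gave 7 at an unadjusted p under 0.05. The median not turned was -0.0418 with arrays scaled to 1 spread, -0.0385 with quantile normalization, -0.0294 without centring, -0.0347 with 1 array per replicate, -0.0381 with zeros also missing and -0.0301 per gene. Of 441 values of single probes under the alternatives, 430 kept their sign, but part of these could not change. Means of probes measured on every array are fixed under the replicate block, a dye term and arrays taken as single observations. The filter of 1 array per replicate also leaves them unchanged, as does 1 value per gene where a gene has 1 such probe. The other 11 values changed sign, all 11 when 1 array was left out. Those turned means ranged from -0.0035 to 0.077 (Lcch3), -0.181 to 0.0452 (nAChRalpha2, probe 3421), -0.108 to 0.352 (ppk6), -0.249 to 0.102 (GluClalpha), -0.245 to 0.0348 (Nmdar1), -0.04 to 0.144 (GluRIA), -0.0438 to 0.195 (nAChRbeta2) and -0.318 to 0.176 (ppk24), and the mean of GluRIIE not turned from -0.32 to 0.0325. The cause was not tested.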
